A study of Mus musculus with 4 samples.

Results

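Genes of cholesterol synthesis, of sterol transport and of their regulation by the SREBP transcription factors were followed in resident liver stem cell (RLSC) lines and in the hepatocytic line MMH-D3, all from mouse liver. The genes were chosen by symbol, 29 in all, and every probe set annotated with 1 of these symbols alone was taken. This gave 26 genes with 56 probe sets, out of 18193 genes named in this way and 45101 probe sets on the array. Acat2, Nr1h2 and Soat1 had no probe set annotated in this way and were not analysed here. All 26 genes passed the filter on low signals and were among the 12598 genes tested.

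RNA was measured on 4 Affymetrix Mouse430_2 arrays. MMH-D3 was measured on 2 arrays, and the labels do not say whether these came from separate cultures. The RLSC group held 2 lines with 1 array each. MetE14/3 is clone B2, and its donor was a cyto-Met transgenic embryo aged 14 days post coitum. WTE14/1 came from a wild-type embryo of that age, and its source name reads WT E14/3 where its title reads WTE14/1. The MMH lines come from livers carrying a truncated Met, according to the work that the labels cite, while the age and genotype of the animal behind MMH-D3 are not stated in the labels. All cultures were begun on collagen I with serum, epidermal growth factor, insulin-like growth factor II and insulin. RLSC colonies with palmate morphology were then expanded for about 50 generations in a serum-containing medium for which the labels list none of these factors. The p-values below measure only the spread between these arrays, and in the RLSC group that spread includes the difference between its lines.

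Cells make cholesterol from acetyl-CoA through mevalonate and farnesyl diphosphate to squalene, which is closed into lanosterol and trimmed stepwise to cholesterol. SREBP2, encoded by Srebf2, is held in the endoplasmic reticulum membrane with its escort Scap. When membrane sterol is ample, the Insig proteins retain this complex; when it is scarce, SREBP2 reaches the Golgi, is cut, and switches on genes of the whole pathway. Hepatocytes are a major site of this synthesis, and the liver X receptors oppose it by sensing oxysterols and promoting sterol export.

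Most enzymes of the pathway had lower signals in both RLSC lines than on both MMH-D3 arrays, but no gene of the set passed the test. All 6 measured enzymes of the mevalonate arm lay in this order, as did 8 of 11 enzymes of the sterol arm, Srebf2, Insig1, Insig2, Stard4 and the liver X receptor gene Nr1h3. Srebf1, Scap, Npc1 and Npc2 did not follow it. Differences are given throughout as RLSC minus MMH-D3 on the log2(signal + 4) scale after quantile normalization, with the moderated standard error (SE) of limma's fit. The median difference over the 26 genes was -1.18, against 0.03 over all genes tested. Of the 26, 19 had both RLSC lines below both MMH-D3 arrays on this scale and 0 had both above. Over all genes tested these shares were 21.4% and 20.8%. With limma and Benjamini-Hochberg adjustment over all genes, 0 of the 26 passed at 0.05, where 63 genes (0.5%) were lower and 49 (0.389%) higher in RLSC. The smallest adjusted p among the 26 was 0.177, for Nsdhl. At an unadjusted p under 0.05, 11 of the 26 were lower, against 7.1% of all genes. An exact permutation test of 2 against 2 arrays cannot give a two-sided p below 0.333 and was not used for single genes.

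The size of the shift depended on the arrays set against each other. The poly-A spike-in controls, added to the RNA before labelling, gave 10.6-fold higher signals (median of 24 probe sets) for MMH-D3 array 1 and MetE14/3 than for the other arrays. MMH-D3 array 2 and WTE14/1 formed the other pair. The arrays were therefore also compared within these pairs. The median over the 26 genes was -0.56 between MetE14/3 and MMH-D3 array 1 and -1.79 between WTE14/1 and MMH-D3 array 2, with 20 and 24 genes lower. Of the 26 genes, 19 were lower in RLSC in both pairs, against 29.7% of all genes. These were the same 19 that had both RLSC lines below both MMH-D3 arrays. That order already fixes the sign in both pairs, so the count adds nothing to it. Idi1, Msmo1, Nr1h3, Nsdhl and Srebf2 were lower by at least 1 log2 unit in both, which is 5 of 26 against 5.86%. The median was -0.66 without MMH-D3 array 2. With the pair as a block, 0 of the 26 genes passed and the counts over all genes were 116 lower and 82 higher. Over all genes, none was called without either of the MMH-D3 arrays, 8 were lower and 6 higher without WTE14/1, and 153 were lower and 53 higher without MetE14/3.

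**Figure D1:**
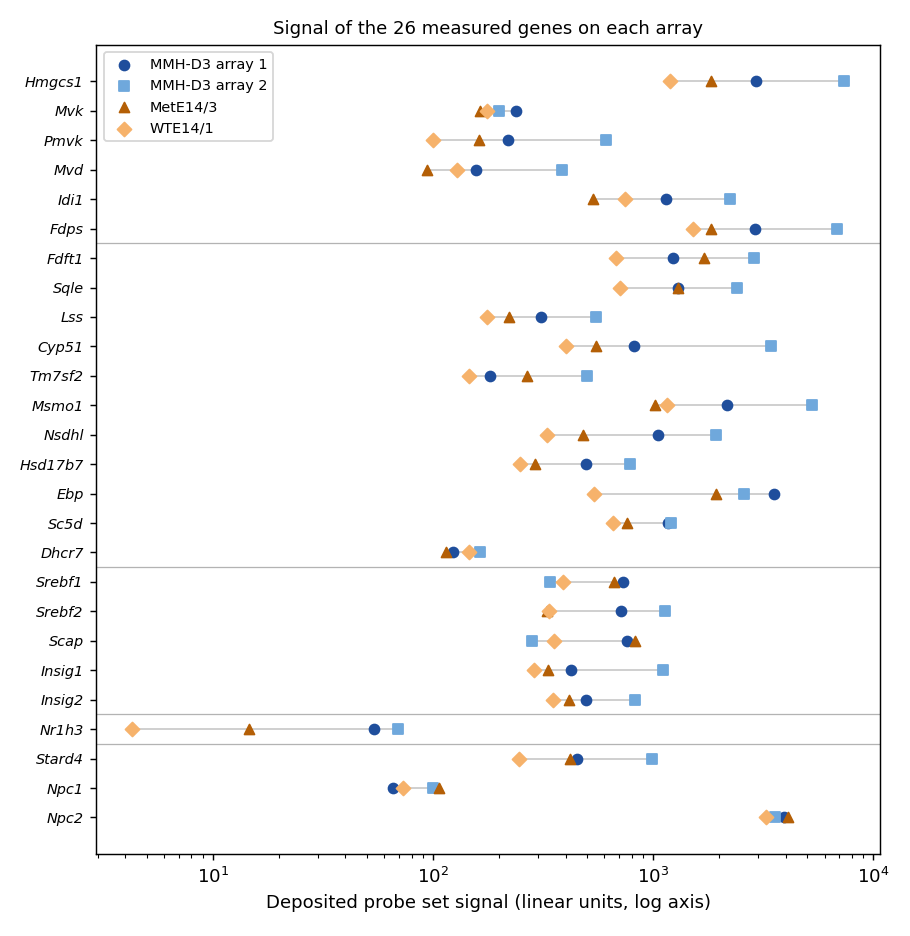
Deposited probe set signal (log axis) of the 26 measured genes, 1 probe set per gene, on each of the 4 arrays, with lines separating the mevalonate arm, sterol arm, SREBP regulators, Nr1h3, and transport genes. MMH-D3 array 2 (pale blue squares) lies at the right for most enzymes, for example at 7362 for Hmgcs1, and WTE14/1 (pale orange diamonds) at the left for most, for example at 1195 for Hmgcs1. Probe sets differ in their response, so levels are read along a row and not between rows.

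Promoters of 5 of these genes are shown. Hmgcs1 and Insig1 are the measured genes with an exact match to the sterol regulatory element core searched. Cyp51, Nsdhl and Srebf2 are genes described below without such a match. They were picked with their values and matches known and do not represent the set. The sequences give the 250 bases before the gene start, 5′ to 3′ in the direction of the gene, from RefSeq on GRCm38.p6. Capitals mark matches on either strand to CACNCCAC (the core of a sterol regulatory element, the site of the SREBPs), CCAAT (bound by NF-Y), GGGCGG (bound by Sp1) and CACGTG (an E-box).
Hmgcs1 promoter, chr13:119690101-119690350, plus strand: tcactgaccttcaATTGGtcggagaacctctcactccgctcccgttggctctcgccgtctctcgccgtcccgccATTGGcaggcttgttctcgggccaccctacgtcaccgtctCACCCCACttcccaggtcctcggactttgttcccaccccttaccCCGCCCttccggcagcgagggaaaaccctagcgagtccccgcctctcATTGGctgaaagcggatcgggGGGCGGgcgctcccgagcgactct
Insig1 promoter, chr5:28071162-28071411, plus strand: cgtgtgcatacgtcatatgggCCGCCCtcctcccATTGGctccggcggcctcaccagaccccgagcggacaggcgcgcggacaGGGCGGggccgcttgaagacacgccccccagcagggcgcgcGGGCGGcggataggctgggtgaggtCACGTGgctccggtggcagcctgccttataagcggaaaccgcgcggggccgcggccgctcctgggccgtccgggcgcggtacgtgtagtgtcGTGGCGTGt
Cyp51 promoter, chr5:4104698-4104947, minus strand: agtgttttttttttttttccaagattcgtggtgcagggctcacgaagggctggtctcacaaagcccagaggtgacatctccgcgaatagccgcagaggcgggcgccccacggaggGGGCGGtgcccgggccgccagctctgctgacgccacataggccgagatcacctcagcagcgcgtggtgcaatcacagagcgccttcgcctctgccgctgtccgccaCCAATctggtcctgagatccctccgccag
Nsdhl promoter, chrX:72918271-72918520, plus strand: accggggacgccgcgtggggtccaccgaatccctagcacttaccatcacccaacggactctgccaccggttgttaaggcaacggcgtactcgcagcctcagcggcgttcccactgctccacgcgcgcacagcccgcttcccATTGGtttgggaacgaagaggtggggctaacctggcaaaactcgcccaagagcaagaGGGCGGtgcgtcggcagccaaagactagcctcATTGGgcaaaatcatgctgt
Srebf2 promoter, chr15:82147019-82147268, plus strand: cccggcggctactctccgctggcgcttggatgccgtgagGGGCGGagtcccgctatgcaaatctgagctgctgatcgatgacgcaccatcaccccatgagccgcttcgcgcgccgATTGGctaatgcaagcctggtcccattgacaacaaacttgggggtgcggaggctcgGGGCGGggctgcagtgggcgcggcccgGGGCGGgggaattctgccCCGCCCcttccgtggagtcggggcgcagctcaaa
Hmgcs1 held 1 match to CACNCCAC, 3 to CCAAT and 2 to GGGCGG, and Insig1 held 1, 1 and 3 of these and 1 E-box. Cyp51, Nsdhl and Srebf2 held CCAAT and GGGCGG without CACNCCAC.

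Over the whole set, 24 of the 29 genes had 33 such windows in the table. Among these 24 are Acat2, Nr1h2 and Soat1, which were not measured, so the shares of tested genes below are not a strict match. CCAAT was present in at least 1 window of 20 of the 24 genes (83.3%), against 40.5% of the 10186 tested genes that the table holds and 37.5% of all 27025 genes in it. GGGCGG was present in 20 of the 24 (83.3%), against 62.6% and 35.4%. CACNCCAC was found in 3 of the 24 (12.5%), Acat2, Hmgcs1 and Insig1, against 6.75% and 6.05%. CACGTG was found in 5 (20.8%), against 9.69% and 6.86%. Counted by window, over the 33 of the set and all 32851, CCAAT was present in 63.6% against 33.8%. By window GGGCGG was present in 69.7% against 32.7%, CACNCCAC in 9.09% against 5.29% and CACGTG in 15.2% against 6.02%. No matches of different motifs overlapped in the 33 windows of the set. The Nr1h3 windows held none of the 4 motifs. A match is a run of letters and not a measured binding site. Only these exact letters were searched, so a window without a match was not shown to lack a binding site.

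In the mevalonate arm, which builds farnesyl diphosphate from acetyl-CoA units, all 6 measured genes had lower signals in RLSC. The median difference was -1.32, with -0.61 and -1.88 within the pairs. Hmgcs1, which makes HMG-CoA, read 1834 in MetE14/3 and 1195 in WTE14/1, against 2933 and 7362 on MMH-D3 arrays 1 and 2. Both RLSC lines were lower than both MMH-D3 arrays, and the MMH-D3 arrays themselves were further apart than the RLSC lines. The difference was -1.55 (SE 0.51, limma adjusted p = 0.279). Of the measured genes with a promoter window, Hmgcs1 and Insig1 alone held a CACNCCAC match, as shown above.

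Fdps, which makes farnesyl diphosphate, read 1835 and 1509 in the RLSC lines, in the order MetE14/3 and WTE14/1 used from here on, and 2903 and 6814 on MMH-D3 arrays 1 and 2. Its difference was -1.32 (SE 0.47, limma adjusted p = 0.323). Both lines were below both MMH-D3 arrays. Idi1, the isomerase that converts isopentenyl diphosphate, read 531 and 743 in the RLSC lines and 1146 and 2226 in MMH-D3 (-1.31, SE 0.47). Here MetE14/3 was the lowest array. The kinase Pmvk read 162 and 99.5 in RLSC and 219 and 612 in MMH-D3 (-1.65, SE 0.62), and the decarboxylase Mvd 93.8 and 128 against 157 and 385 (-1.28, SE 0.53). Both had MMH-D3 array 2 well above the other 3 arrays. Mevalonate kinase, Mvk, did not share this: it read 164 and 175 in RLSC and 238 and 199 in MMH-D3. Its difference was -0.45 (SE 0.44), and MMH-D3 array 1 was its highest.

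In the sterol arm, which runs from farnesyl diphosphate through squalene and lanosterol to cholesterol, the 11 genes had a median difference of -1.15, with -0.57 and -1.87 within the pairs. All 11 differences were below 0, and in 3 of the genes, Fdft1, Sqle and Tm7sf2, the groups overlapped. These 3 are described last. Cyp51, the lanosterol demethylase, read 550 and 401 in RLSC, below the 818 and 3429 of the MMH-D3 arrays. The RLSC lines lay close together, while MMH-D3 array 2 was over 4-fold above array 1, as in 1 of the 26 genes and 2.93% of all genes. With a median shift of each array this gap was 1.69 on the log2 scale, below 4-fold, and with the median of a gene's probe sets it was 1.37. In that last setting Lss passed 4-fold instead, at 2.70. On array 1, 0 of the 26 were 4-fold higher, against 3.01%. The difference was -1.85 (SE 0.70, limma adjusted p = 0.358).

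Further enzymes remove the remaining extra methyl groups. Nsdhl, a sterol dehydrogenase of the demethylation complex, read 478 and 331 in the RLSC lines, below its 1049 and 1919 in MMH-D3, and differed by -1.84 (SE 0.48, limma adjusted p = 0.177). Msmo1, the methylsterol monooxygenase of the same complex, read 1018 and 1150 against 2163 and 5262 (-1.58, SE 0.49). Hsd17b7, its ketoreductase, read 290 and 248 against 495 and 782 (-1.26, SE 0.44). On a dim Hsd17b7 probe set the groups overlapped, at 11.1 and 25.8 against 24.5 and 19.3. Another, at 82.7 and 146 against 136 and 368, overlapped on the deposited signals only, and a further one, at 93.4 and 124 against 168 and 246, did not. On the brightest probe sets of Nsdhl, Msmo1 and Hsd17b7 each RLSC line was below the MMH-D3 array of its own pair. The differences in the pair with MetE14/3 lay between -1.08 and -0.80. In the pair with WTE14/1 they were -2.60, -2.15 and -1.72.

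Lss, the cyclase that makes lanosterol, read 222 and 176 in RLSC against 309 and 550 (-1.15, SE 0.47). Ebp, the sterol isomerase, differed by 1.83 between the RLSC lines: MetE14/3 read 1921 and WTE14/1 539, against MMH-D3 signals of 3522 and 2598 (-1.54, SE 0.60). Sc5d, the desaturase, read 759 and 658 in RLSC and 1168 and 1206 in MMH-D3 on its brightest probe set, which differed by -0.73 (SE 0.35, limma adjusted p = 0.481). On its other 2 probe sets past the filter the groups overlapped and the MMH-D3 arrays stood 2.43 and 1.61 apart, and with the median of its probe sets the difference was -0.38. Dhcr7, the last reductase on 1 branch of the pathway, read 115 and 145 against 123 and 163 (-0.26, SE 0.44), and its groups overlapped on the deposited signals.

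In Fdft1, Sqle and Tm7sf2 the groups overlapped and MetE14/3 read above WTE14/1. The gap between these lines was wider for Ebp. Fdft1, which makes squalene, read 1701 and 676 in the RLSC lines and 1228 and 2858 in MMH-D3, so MetE14/3 lay between the MMH-D3 arrays (-0.78, SE 0.61). Its other bright probe set read 970 and 594 against 997 and 2097 (-0.92, SE 0.50). There the groups overlapped after normalization but not on the deposited signals. Sqle, the epoxidase that controls flux through this arm, read 1295 in MetE14/3, 1294 on MMH-D3 array 1, 708 in WTE14/1 and 2408 on MMH-D3 array 2 (-0.85, SE 0.49). Tm7sf2, a sterol reductase, read 267 and 146 against 182 and 500 (-0.74, SE 0.62). In all 3 genes WTE14/1 was lowest and MMH-D3 array 2 highest, and within the pair of MMH-D3 array 1 and MetE14/3 the differences were 0.53, 0.06 and 0.38.

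**Figure D2:**
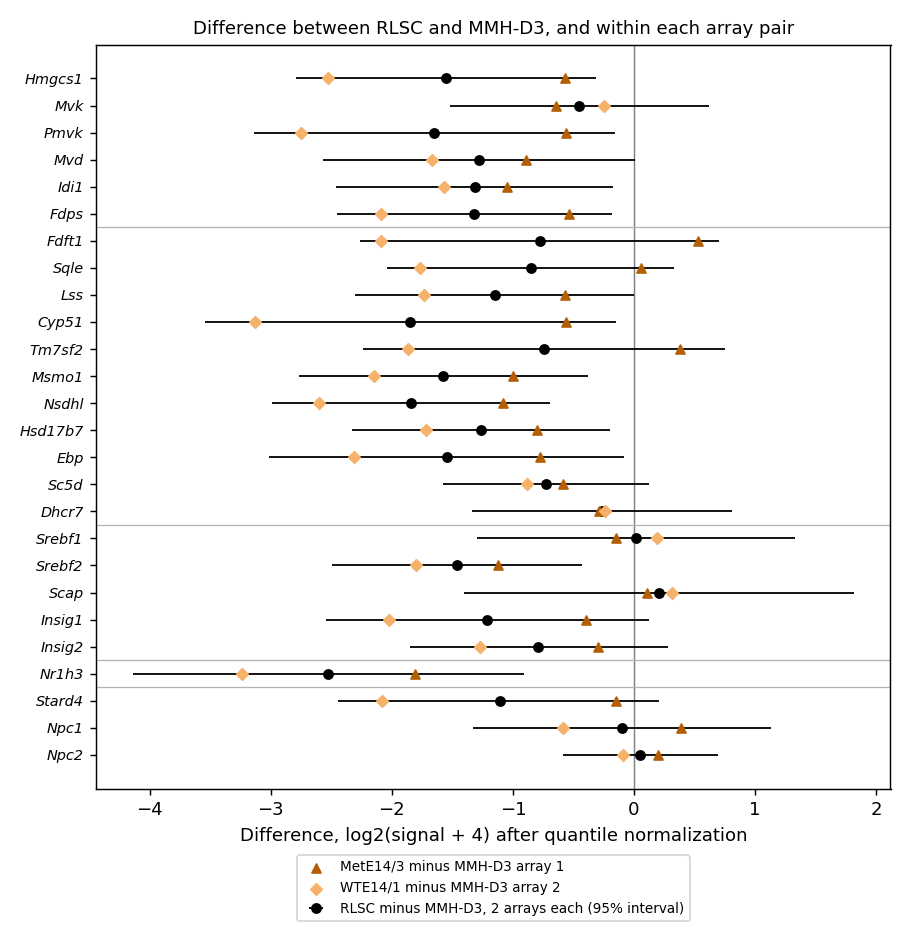
Difference of each gene on the log2(signal + 4) scale, with black points and bars for RLSC minus MMH-D3 over 2 arrays each and its 95% interval from limma, triangles for MetE14/3 minus MMH-D3 array 1, and diamonds for WTE14/1 minus MMH-D3 array 2. Diamonds lie to the left of triangles for most genes, at -3.13 against -0.56 for Cyp51, while Srebf1, Scap, Npc1 and Npc2 lie near 0.

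Among the regulators, Srebf2 and the Insig genes were lower in RLSC and Srebf1 and Scap were not. Srebf2 read 328 and 337 in the RLSC lines, against MMH-D3 signals of 714 and 1136. The RLSC lines were nearly equal and both below both MMH-D3 arrays. The difference was -1.46 (SE 0.42, limma adjusted p = 0.222), with -1.12 and -1.80 within the pairs. Its other probe set read 275 and 288 against 396 and 762, in the same order.

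Insig1 is itself switched on by the SREBPs and in turn retains them. It read 333 and 287 in RLSC and 424 and 1113 in MMH-D3 (-1.21, SE 0.55, limma adjusted p = 0.458). Insig2, which has the same retaining role, read 413 and 351 against 495 and 826 (-0.79, SE 0.44). The other Insig2 probe sets differed by -0.42 and -0.70, and in both the groups overlapped.

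Srebf1, which encodes SREBP1 and is best known for driving fatty acid synthesis, read 662 and 391 in the RLSC lines and 727 and 339 in MMH-D3. Scap, the escort of both SREBPs, read 826 and 355 in these RLSC lines and 760 and 281 in MMH-D3. In both genes the arrays divided by spike-in pair and not by cell line: MMH-D3 array 1 and MetE14/3 were above the other 2 arrays, as in 3 of the 26 genes (the other being Npc2) and 18.1% of all genes. The part of the pair in these values was not tested. The differences between RLSC and MMH-D3 were 0.02 (SE 0.54) for Srebf1, turning to -0.17 with a median shift of each array, and 0.21 (SE 0.66) for Scap. Their 95% intervals, -1.30 to 1.33 and -1.40 to 1.82, leave room for changes of either sign.

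Nr1h3, encoding the liver X receptor alpha that senses oxysterols, differed by the most at this pseudocount. Its signals were 14.6 and 4.30 in the RLSC lines, below the MMH-D3 signals of 53.8 and 69.1. The MMH-D3 arrays were close and both RLSC lines were below them. The difference was -2.53 (SE 0.67, limma adjusted p = 0.187), with -1.81 and -3.24 within the pairs. The WTE14/1 signal lay below the filter level of 11.9, so the size and the rank depend on the pseudocount. With a pseudocount of 16 the difference was -1.72, against -1.82 for Cyp51 and -1.81 for Nsdhl. Without MMH-D3 array 1 it was -2.51, against -2.89 for Cyp51. Nr1h3 was removed by a filter at the 60th percentile.

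Of the transport genes, Stard4, a soluble carrier that moves sterol to the endoplasmic reticulum, read 419 and 246 in RLSC and 453 and 989 in MMH-D3 (-1.11, SE 0.55, limma adjusted p = 0.493). MetE14/3 was just below MMH-D3 array 1, and the difference in that pair was -0.15. On a further Stard4 probe set the groups overlapped, at 299 and 315 in RLSC against 280 and 1092. On another, at 155 and 176 against 158 and 583, they overlapped on the deposited signals only. The genes that export cholesterol from lysosomes gave differences near 0. Npc1 read 107 and 73.2 in RLSC and 66.0 and 100 in MMH-D3 (-0.10, SE 0.51), and Npc2 read 4082 and 3240 against 3913 and 3581 (0.05, SE 0.26). The Npc1 difference was 0.12 on the deposited scaling, and that of Npc2 was -0.04 on the deposited scaling and -0.25 with a median shift. The 95% interval of Npc2, -0.59 to 0.69, was the narrowest of the set.

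Within MMH-D3, the pathway differed between the arrays of this 1 line. Array 2 was at least 2-fold above array 1 for 11 of the 26 genes, against 13.4% of all genes, and was the highest of the 4 arrays for 19 of the 26, against 29.6%. The first count depended on the scaling: with a median shift of each array it was 4 (Cyp51, Insig1, Pmvk and Tm7sf2), against 10.7% of all genes, and array 2 was highest for 18, against 25.6%. The median of array 2 minus array 1 was 0.84 over the 26 genes and 0.00 over all genes, and 0.47 and -0.20 with a median shift. With the main processing Ebp, Mvk, Nr1h3 and Npc2 were not higher on array 2, and Srebf1 and Scap were lower there, with differences of -1.12 and -1.45. On the deposited scaling Nr1h3 was higher on array 2 by 0.34. Npc2 was higher there by 0.74 with the median of its probe sets.

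Cell proliferation genes differed in the opposite direction between the same arrays, and 0 of them passed limma's test between RLSC and MMH-D3, with a median difference of 1.09 and 0 genes at an unadjusted p under 0.05. The summed signal of 11 such genes, among them the mitotic kinases Bub1 and Cdk1, was 35706 on MMH-D3 array 1 and 8554 on array 2, against 35244 in MetE14/3 and 30627 in WTE14/1. All 11 had MMH-D3 array 2 as the lowest, a share that was not counted over all genes. Their median of array 2 minus array 1 was -2.24, against 0.00 over all genes. The 6 hepatocyte markers differed between these MMH-D3 arrays too, with a median of array 2 minus array 1 of 1.5. Not all of them were higher on array 2: Afp read 1456 on array 1 and 923 on array 2. The part of proliferation, or of what these markers reflect, in the cholesterol genes was not tested.

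**Figure D3:**
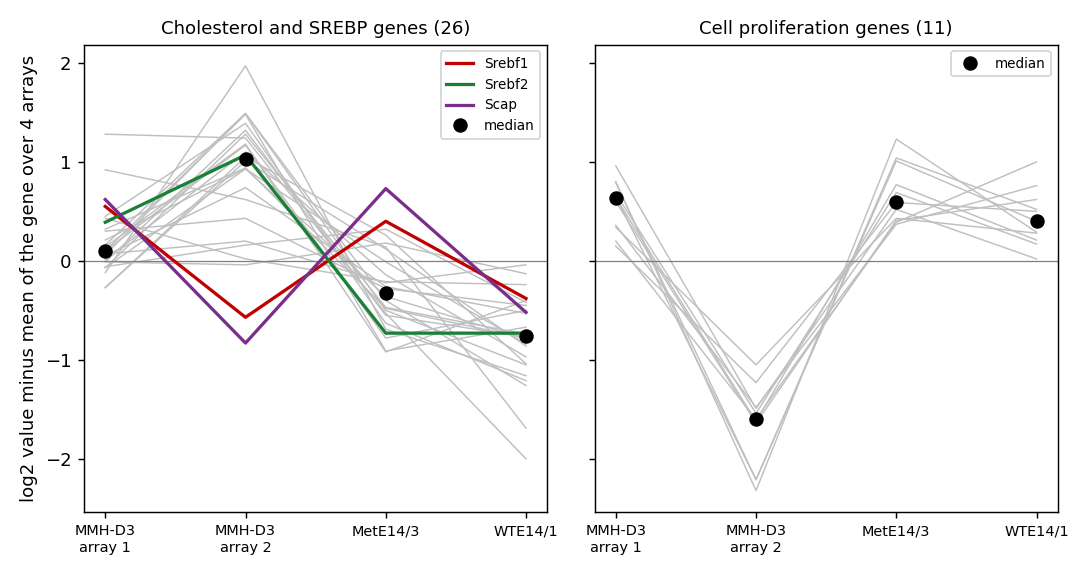
Values on the log2 scale, each gene minus its mean over the 4 arrays, for the 26 cholesterol and SREBP genes (left) and 11 cell proliferation genes (right), with black points for the median of each panel and lines joining the values of a gene. The cholesterol genes have medians of 0.10, 1.03, -0.32 and -0.76 in the order drawn, and the proliferation genes 0.64, -1.60, 0.59 and 0.40. Srebf2 follows the cholesterol genes, while Srebf1 and Scap are low on MMH-D3 array 2 and WTE14/1.

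Between the RLSC lines, each measured on 1 array and so without a test, signals were mostly higher in MetE14/3. The lines differ in donor genotype and also lie in different spike-in pairs. Line, genotype and pair therefore cannot be told apart here. The median of MetE14/3 minus WTE14/1 was 0.46 over the 26 genes and 0.00 over all genes. Ebp, Fdft1, Nr1h3 and Scap were at least 2-fold higher in MetE14/3, which is 4 of 26 against 10.3% of all genes, and 0 of 26 were at least 2-fold higher in WTE14/1, against 9.23%. With a median shift of each array 10 of 26 were at least 2-fold higher in MetE14/3, against 17.2% of all genes, and the medians were 0.83 over the 26 genes and 0.33 over all genes. No gene of the set was 4-fold apart in either direction, against 2.79% and 2.33% of all genes, although Ebp was with a median shift (2.26). WTE14/1 was the lowest of the 4 arrays for 20 of the 26 genes, against 25.2%, and MetE14/3 for Dhcr7, Idi1, Msmo1 and Mvd, against 21.5%. With the median of a gene's probe sets WTE14/1 was lowest for 15, against 25.8%, and with a median shift for 24, against 37.7%. Set against the mean of the MMH-D3 arrays, which both values share, the median over the 26 genes was -0.81 for MetE14/3 and -1.36 for WTE14/1.

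Different probe sets of a gene mostly gave the same picture. Of the 56 probe sets, 51 passed the filter and 44 of these had a lower mean in RLSC. Both RLSC lines were below both MMH-D3 arrays in 32 of the 51, against 19.5% of the 27022 probe sets tested. In limma's fit over probe sets, 0 of the 51 passed, where 0.389% of all probe sets were lower in RLSC, and the smallest adjusted p was 0.194, for Nr1h3. At an unadjusted p under 0.05, 14 of the 51 were lower in RLSC, against 5.76% of all probe sets. Of 13 genes with over 1 probe set past the filter, 9 had the same sign in each.

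The exceptions were Fdft1, Mvk, Npc2 and Sc5d. A dim Fdft1 probe set, at 3.60 to 26.9 over the 4 arrays, differed by 1.01. The further Mvk probe set read 142 and 158 in RLSC and 211 and 84.9 in MMH-D3, a difference of 0.05. A dim probe set of Sc5d differed by 0.35. For Lss, a probe set at 67.7 and 46.5 in RLSC and 65.6 on MMH-D3 array 1 read 591 on array 2, the widest gap between the MMH-D3 arrays of any probe set here. The 4 brightest Hmgcs1 probe sets differed by -1.55, -1.11, -1.29 and -1.25. On the last of these the groups overlapped on the deposited signals, at 583 and 548 in RLSC against 573 and 2996.

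Neighbouring pathways were read in the same fit, and with limma 0 genes of each of the next 4 lists passed in either direction. At an unadjusted p under 0.05 there were 0, 0, 2 and 3 genes in the order given, against 1556 of all 12598 genes tested. Of 7 tested genes of the isoprenoid branch, which uses farnesyl diphosphate for other products, the median was -0.08. Pdss2, a subunit of the ubiquinone side-chain synthase, differed by -0.90 (SE 0.47), and Ggps1, which makes geranylgeranyl diphosphate, by 0.91 (SE 0.48). In this list the enzyme signals thus stood on both sides of 0. Of 7 tested genes of SREBP processing and sterol-regulated degradation, the median was -0.22, with Aup1 at -0.74 (SE 0.36) and Erlin2 at -0.53 (SE 0.44).

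The 12 fatty acid synthesis genes had a median of 0.04. In 3 of the 12 both RLSC lines were below both MMH-D3 arrays, against 21.4% of all genes. Malic enzyme, Me1, read 910 and 691 in RLSC and 2717 and 5085 in MMH-D3 (-2.17, SE 0.44, limma adjusted p = 0.0985). The desaturase Scd1 read 581 and 392 against 1029 and 3211 (-1.94, SE 0.62). Over this list MMH-D3 array 2 was above array 1 by a median of 0.88. Of 12 tested genes of sterol efflux, transport and oxysterols, the median was -0.13. The lipoprotein receptor relative Lrp1 read 23.5 and 82.7 in RLSC and 144 and 645 in MMH-D3 (-2.79, SE 0.80). Abca1, the cholesterol exporter, read 46.5 and 65.4 in RLSC and 17.9 on MMH-D3 array 2 (2.31, SE 0.75), with MMH-D3 array 1 below the filter level.

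Markers of the cell types were read to check the labels. Of 6 hepatocyte markers, 6 had both RLSC lines below both MMH-D3 arrays, against 21.4% of all genes. Afp was lower in RLSC (-3.49, SE 0.47, limma adjusted p = 0.0389). Albumin read 44.7 and 440 in MMH-D3 and at most 2.91 in RLSC. Of 5 tested mesenchymal markers, Acta2 and Tagln passed limma's test as higher in RLSC, against 0.389% of all genes. None passed as lower. Pdgfrb had both RLSC lines above both MMH-D3 arrays without passing (4.71, SE 0.80). In Vim (0.12, SE 0.18) and Col3a1 (1.42, SE 1.04) the groups overlapped, and Col1a1 was below the filter. Haematopoietic and macrophage markers summed to 103 to 154 over 5 genes on the 4 arrays and endothelial markers to 15.2 to 64.4 over 4, with Pecam1 at 1.10 to 5.07. In such bulk RNA, fewer cells of a type and less RNA per cell cannot be told apart.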

How the data were processed

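The 4 arrays each gave 1 deposited value per probe set, a linear intensity that the authors obtained with GCOS (Affymetrix), as the submitters' processing notes name it. For GCOS, version and settings were not given in the sources used here. Detection calls did not enter. With the extreme 2% of probe sets trimmed at each end, every array had a mean signal of 200.0. Median signals ranged from 16.9 to 28.0 over the arrays. Precision is limited by how few arrays there are.

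The 64 control probe sets were left out. Values entered as log2(signal + 4), so the folds of dim genes are understated. Array medians differed by 0.614 on this scale, above the limit of 0.25, so quantile normalization was applied. Probe sets whose mean log2 value lay below the 40th percentile (a signal of 11.9) were removed. The brightest probe set by mean stood for each gene, named through the platform annotation. For all 56 probe sets of the set, a RefSeq table of GRCm38.p6 gave the same symbol by Entrez identifier. The two-sided test used lmFit and trended eBayes of limma 3.58.1 (R 4.3.3), and p-values were adjusted over all genes by Benjamini-Hochberg at 0.05. There were 2 residual and 4.24 prior degrees of freedom. The fit was tested on simulated data without the pairs by poly-A controls. The changes planted there were larger than any difference of the set in the main fit.

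All 26 measured genes were named. Of each other list, genes past the threshold were named, or else the 2 with the largest difference among genes whose groups did not overlap. Albumin, Pecam1 and the mesenchymal markers not past the threshold were named beyond this rule, after their values were seen. The genes, the lists and the motifs were chosen with earlier results of these data known. RLSC arrays were numbered in accession order, so numbers pair no arrays. Pairs by poly-A controls served as a block and for comparisons within pairs. Lists were described by counts and medians without a test.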

Additional observations from a re-analysis of the deposited data

How the results depend on the processing

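The 15 alternatives covered the pseudocount, scaling, filter, choice of probe set, trend, spike-in pairs and each array left out, and 0 of the 26 genes passed under any setting with a test. The lowest adjusted p was 0.0849, for Cyp51 and Msmo1 without MMH-D3 array 1. Of the 26 genes, 19 kept their sign throughout. Within MMH-D3 array 1 and MetE14/3, the sign turned for Fdft1 (0.53), Sqle (0.06), Tm7sf2 (0.38), Npc1 (0.39) and Srebf1 (-0.15), and within MMH-D3 array 2 and WTE14/1 for Npc2 (-0.09). The deposited scaling turned Npc1 (0.12) and Npc2 (-0.04), and a median shift turned Npc2 (-0.25) and Srebf1 (-0.17). The cause of these turns was not tested.

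With 1 array left out, Npc1 ranged from -0.47 to 0.28, Npc2 from -0.10 to 0.21, Srebf1 from -0.54 to 0.58 and Scap from -0.51 to 0.93. The median over the genes ranged from -1.54 to -0.66, and was -0.56 and -1.79 within the pairs. The count with both RLSC lines below both MMH-D3 arrays was 18 on the deposited scaling, 20 with a median shift and 16 with the median of probe sets. Genes called lower ranged from 0 to 153 and higher from 0 to 53 with 1 array left out. Without a filter they were 6 and 5, with the pair as a block 116 and 82, and with a median shift 119 lower. A median shift moved the median of all genes to -0.11 and that of the set to -1.30, and put 1 gene at least 4-fold apart between the RLSC lines. Arrays could not be paired by replicate because the RLSC labels carry no replicate numbers. The pairs by spike-in level used above are not pairs of replicates.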
